A study of Homo sapiens with 4 samples.

Results

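The genes that move iron into, within and out of cells were followed in 2 human hepatocellular carcinoma cell lines, Huh7 and PLC. Each line was grown for 48 h in medium with a glucose concentration of 5 mM (low-glucose) or 25 mM (high-glucose). The genes are TF, TFRC, TFR2, STEAP3, SLC11A2, FTH1, FTL, SLC40A1, HAMP and HFE. They were chosen by name, with earlier results of these data known, and all 10 are among the 59652 genes of the count table. The labels give both lines as WT and name no other agent, and the 4 libraries differ by label in line and glucose only. A single library of rRNA-depleted RNA stands for each line and concentration, and no difference between libraries has a replicate check. The values are RNA levels of bulk cultures, in which fewer cells of a type and less RNA per cell cannot be told apart.

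Hepatocytes make transferrin (TF), the plasma protein that carries iron, and take up iron-loaded transferrin through the transferrin receptor TFRC. In the endosome the reductase STEAP3 reduces the iron and the transporter SLC11A2 (DMT1) passes it to the cytosol. Ferritin, a shell of the heavy chain FTH1, which oxidises iron, and the light chain FTL, stores what is not used, and ferroportin (SLC40A1) is the exporter. Hepcidin, the peptide hormone encoded by HAMP and made mainly in the liver, binds ferroportin and takes it out of the membrane. The second receptor TFR2 and the HLA-like protein HFE take part in sensing iron and raise hepcidin in hepatocytes. Much of this control acts on RNA: the iron regulatory proteins IRP1 (ACO1) and IRP2 (IREB2) bind hairpins called iron-responsive elements when iron is scarce, which blocks translation from a 5′ UTR and stabilises the RNA from a 3′ UTR. RNA levels such as those given here therefore do not show how much ferritin or ferroportin protein was made.

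Iron-responsive elements are a sequence feature that several of the genes share, and they are shown for that reason. Annotated protein-coding transcripts (GENCODE 44, GRCh38) were searched on the sense strand for C, any 5 bases, a loop of CAGTGN and 5 bases that pair with the 5 before the loop, with G-U pairs allowed. Of 19676 protein-coding genes, 303 (1.54%) hold such a match, and 182 (0.925%) hold one in a UTR. Of the 10 genes, 5 hold one in a UTR: FTH1, FTL, SLC40A1, TFRC and TF. The search reads letters only, so a match does not show that a site is bound, and no match says only that these letters are absent. Each line below gives 29 bases from 5′ to 3′ on the gene's strand in DNA letters, with the CAGTGN loop in capitals. The first 3 lie in 5′ UTRs, and the other 5 in 3′ UTRs.
FTH1, chr11:61967574-61967602, minus strand: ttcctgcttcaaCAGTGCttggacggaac
FTL, chr19:48965335-48965363, plus strand: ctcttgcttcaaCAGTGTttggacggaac
SLC40A1, chr2:189580661-189580689, minus strand: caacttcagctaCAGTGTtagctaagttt
TFRC, chr3:196050979-196051007, minus strand: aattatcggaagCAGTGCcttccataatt
TFRC, chr3:196050575-196050603, minus strand: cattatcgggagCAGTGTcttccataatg
TFRC, chr3:196050510-196050538, minus strand: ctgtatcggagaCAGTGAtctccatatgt
TFRC, chr3:196050463-196050491, minus strand: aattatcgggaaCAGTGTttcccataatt
TF, chr3:133792673-133792701, plus strand: tgaatgcattttCAGTGAaagattataac

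TFRC alone among the 10 genes carries several such sites, and all 4 lie in its 3′ UTR. The FTH1 site is in 7 of 8 protein-coding transcripts, the FTL site in 1 of 1 and the TFRC sites in 10 of 11. The SLC40A1 site is in 1 of 5 and the TF site in 1 of 3 of the annotated protein-coding transcripts, and which of these transcripts the cells used cannot be read from counts per gene. With 1 unpaired position allowed, SLC11A2 and HFE also held a match, each in a 3′ UTR. By that search 2278 of 19676 protein-coding genes (11.6%) held a match in any part of a transcript, and 1272 (6.46%) held one in a UTR.

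Levels are given as FPKM, the reads on a gene scaled to its length in kilobases and to the depth of the library. The libraries held between 16049686 and 30279716 counted reads, and the floor of 3 reads that a count of 0 allows stands for 0.0991 to 0.187 CPM, which is scaled to depth alone. All 8 hepatocyte markers checked (ALB, AFP, APOA1, APOB, TTR, SERPINA1, FGB and HNF4A) had reads in 3 libraries, and in PLC cells at 25 mM TTR was at 0. Their summed level was 5200 and 5389 FPKM in Huh7 (5 and 25 mM) and 752 and 1636 FPKM in PLC. For 8 markers each of erythroid, macrophage, fibroblast and endothelial cells, the summed level was at most 8.58 FPKM in any library, and HBB, HBG1, EPB42, CD163, VSIG4, KDR and CLEC4G were at 0 in all 4. The hepatocyte markers thus differed with the line and, in PLC, with glucose, and their part in the differences below was not tested.

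**Figure D1:**
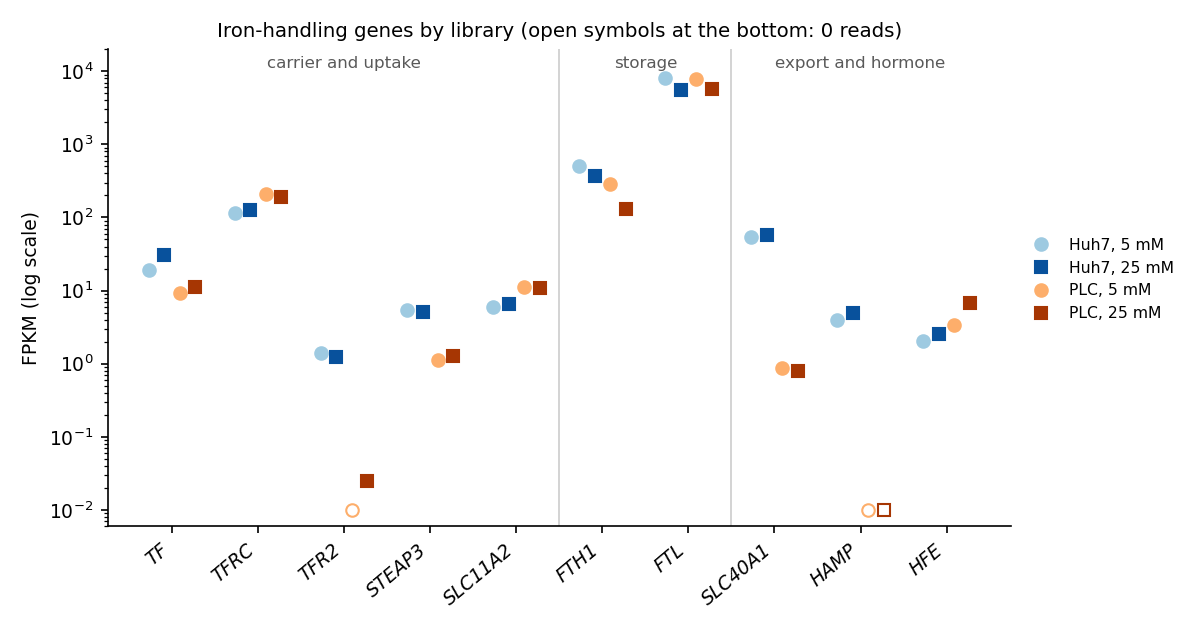
FPKM of the 10 genes (log axis) in each of the 4 libraries, with blue for Huh7 and orange or brown for PLC, circles for 5 mM and squares for 25 mM glucose, and open symbols at the bottom for 0 reads. FTL stands highest in every library at 5557 to 7986 FPKM, while SLC40A1, TFR2 and HAMP separate the lines most.

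Most of the genes differed between the lines. Hepcidin and TFR2 RNA were present in Huh7 cells and at or near 0 in PLC cells, and ferroportin RNA was low in PLC cells, whereas FTH1, FTL, TFRC and SLC11A2 each stayed within a few fold across all libraries. The lines were compared over both glucose levels by edgeR's quasi-likelihood test, with glucose as a covariate and Benjamini-Hochberg adjustment over 23217 genes. The pair of libraries of a line are not replicates of 1 condition, and the fit has 1 residual degree of freedom. All 10 genes passed the filter on low counts, HAMP and TFR2 through their Huh7 reads alone, so the count that follows is a description. Of the 10 genes, 9 had an adjusted p under 0.05, 6 of them higher in Huh7 cells and 3 higher in PLC cells. Among all genes tested 42.9% were called, 21.8% higher in Huh7 and 21.1% higher in PLC. The median log2 difference was 1.20 over the 10 genes and 0.03 over all genes.

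The largest differences were those of SLC40A1, HAMP and TFR2, all at least 10-fold higher in Huh7 cells at both glucose concentrations. With 0.1 added to both FPKM values, such a difference was found for 5.89% of all genes measured at 5 mM and 6.42% at 25 mM. SLC40A1, the cellular iron exporter, lies on chromosome 2 from 189560590 to 189583758. Its reads were 4833 and 7213 in Huh7 (5 and 25 mM in this order, here and in what follows) and 110 and 53 in PLC. These are 53.6 and 56.8 FPKM in Huh7 and 0.861 and 0.783 FPKM in PLC. Both Huh7 libraries stood far above both PLC libraries, and the libraries of a line were close to each other. The ratio of Huh7 to PLC was 62.2 (95% counting interval 51.5 to 75.9) at 5 mM and 72.6 (55.4 to 97.0) at 25 mM. The edgeR log2 difference was 6.05 (standard error 0.28, adjusted p = 4.65e-09).

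HAMP, which encodes hepcidin, lies on chromosome 19 from 35280716 to 35285143. It had 245 and 421 reads in Huh7 cells, or 4.005 and 4.89 FPKM, and 0 reads in both PLC libraries. A count of 0 allows up to 0.0346 FPKM in PLC cells at 5 mM and 0.0653 FPKM at 25 mM. Against that floor of 3 reads per library, Huh7 cells had at least 116-fold more at 5 mM and at least 74.9-fold more at 25 mM. No p is given for HAMP, since it passed the filter on low counts through Huh7 alone, and its fitted difference depends on the prior count. The length in the table covers 2862 bases of HAMP, against 406 in its MANE Select transcript (the reference transcript agreed by NCBI and Ensembl). By that shorter length the Huh7 levels would be 28.2 and 34.5 FPKM. The ratio between libraries does not depend on the length.

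TFR2, the receptor of the hepcidin-inducing branch on chromosome 7 (100620416 to 100642779), had 150 and 186 reads in Huh7 (1.39 and 1.22 FPKM). In PLC it had 0 and 2 reads (0 and 0.0246 FPKM). Huh7 was at least 70.8-fold higher at 5 mM by the same floor, and at 25 mM the ratio was 49.6 (13.5 to 413). For the same reason as for HAMP, no p is given. HFE, its partner in sensing, lies on chromosome 6 (26087281 to 26098343) and was higher in the other line. It had 250 and 433 reads in Huh7 against 584 and 617 in PLC, which is 2.06 and 2.54 FPKM against 3.40 and 6.77 FPKM. Both PLC libraries were above both Huh7 libraries, 1.65-fold (1.42 to 1.92) at 5 mM and 2.67-fold (2.36 to 3.03) at 25 mM. The edgeR log2 difference in favour of PLC was 1.08 (standard error 0.29, adjusted p = 0.0089).

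Of the uptake genes, TF and STEAP3 were higher in Huh7 cells. TF, on chromosome 3 (133746040 to 133796641), had 10663 and 24247 reads in Huh7 and 7244 and 4631 in PLC, which is 19.2 and 31.0 FPKM against 9.19 and 11.1 FPKM. Huh7 was 2.09-fold (2.02 to 2.15) higher at 5 mM and 2.79-fold (2.71 to 2.88) higher at 25 mM, with an edgeR log2 difference of 1.27 (standard error 0.21, adjusted p = 0.000283). The table counts 26038 bases of exons for TF, whose MANE Select transcript has 2094 coding bases in 20166, so that its FPKM cannot be set against the other genes. AC080128.1, a gene within the span of TF on the same strand that shares no exon bases with it, had 173 and 655 reads in Huh7 and 14 and 22 in PLC. SRPRB and INHCAP, also on that strand, share 122 and 191 exon bases with TF. SRPRB had 1786 and 2856 reads in Huh7 and 5002 and 1728 in PLC, and INHCAP had 14 and 10 against 2 and 5. STEAP3, on chromosome 2 (119223831 to 119265652), had 535 and 707 reads in Huh7 and 156 and 92 in PLC, or 5.49 and 5.15 against 1.13 and 1.26 FPKM. The Huh7 level was 4.86-fold (4.06 to 5.84) higher at 5 mM and 4.10-fold (3.29 to 5.15) higher at 25 mM, and the edgeR log2 difference was 2.15 (standard error 0.31, adjusted p = 9.16e-05). The antisense gene STEAP3-AS1 shares 11.0% of the counted length of STEAP3 and had between 10 and 33 reads in a library.

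TFRC and SLC11A2 were higher in PLC cells. TFRC, on chromosome 3 (196027183 to 196082096), had 19157 and 29917 reads in Huh7 and 49211 and 23604 in PLC, or 115 and 128 against 209 and 189 FPKM. The PLC libraries were 1.81-fold (1.78 to 1.84) higher at 5 mM and 1.48-fold (1.45 to 1.504) higher at 25 mM, with an edgeR log2 difference in favour of PLC of 0.72 (standard error 0.18, adjusted p = 0.00646). SLC11A2, on chromosome 12 (50979401 to 51028566), had 1271 and 1965 reads in Huh7 and 3397 and 1708 in PLC, which is 6.01 and 6.61 against 11.3 and 10.8 FPKM. Its edgeR log2 difference in favour of PLC was 0.82 (standard error 0.23, adjusted p = 0.0106). In Huh7 cells TFRC stood 83.0 and 105 times above TFR2 in FPKM at 5 and 25 mM, and in PLC cells TFR2 had next to no reads.

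Of the ferritin chains, FTH1 differed between lines and FTL was not called. FTL, on chromosome 19 (48965309 to 48966879), had 148691 and 145624 reads in Huh7 and 206625 and 80643 in PLC, which is 7986 and 5557 FPKM against 7835 and 5769 FPKM. The lines lay side by side at each glucose concentration, and the edgeR log2 difference, Huh7 minus PLC, was -0.02 (standard error 0.15, adjusted p = 0.934). FTH1, on chromosome 11 (61959718 to 61967634), had 21857 and 21938 reads in Huh7 and 17474 and 4232 in PLC, or 510 and 364 against 288 and 132 FPKM. Both Huh7 libraries were above both PLC libraries, by 1.77-fold (1.74 to 1.81) at 5 mM and 2.77-fold (2.68 to 2.86) at 25 mM. The edgeR log2 difference was 1.14 (standard error 0.21, adjusted p = 0.00084). Without the glucose term the adjusted p was 0.0918, and over all alternatives it ran from 6.67e-07 to that value. By the length of its MANE Select transcript (1203 bases against 2004 in the table) FTH1 would stand at 850 and 606 FPKM in Huh7 and 480 and 219 FPKM in PLC. By the lengths of the table, the FPKM ratio of light to heavy chain was 15.7 and 15.3 in Huh7, and it reached 27.2 and 43.8 in PLC. The ratio of TFRC to FTH1 was 0.225 and 0.351 in Huh7 and 0.724 and 1.43 in PLC, lowest in Huh7 at 5 mM and highest in PLC at 25 mM. Both ratios, and the FTH1 levels by either length, carry the limits of the FTH1 count given in the next paragraph.

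The level of FTH1 has further limits. The exons of BEST1 lie opposite 73.2% of the MANE Select transcript of FTH1, and whether the counting used the strand is not given in the sources used here. Processed pseudogenes in introns had a median of 1.27 FPKM on the strand of the host gene and 1.30 FPKM on the opposite strand. Without strand, reads from the 2 genes cannot be told apart in that stretch, and its part in the FTH1 values was not tested. BEST1 itself had 58, 35, 233 and 30 reads in the 4 libraries in the order above, few beside those of FTH1. Counting that leaves out reads lying on 2 genes would lower the counts of both. The few BEST1 reads therefore do not show that the FTH1 reads are complete, and such a loss was not tested. Reads may also fall on processed pseudogenes, of which the table lists 24 named for FTH1 and 16 for FTL. They took 1.61%, 1.87%, 2.05% and 3.18% of the reads on FTH1 and its copies, with FTH1P8 and FTH1P24 ahead of the other copies. For FTL the share was at most 0.0288%, with FTLP8 and FTLP3 ahead. Reads of near-identical copies cannot be placed with certainty.

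**Figure D2:**
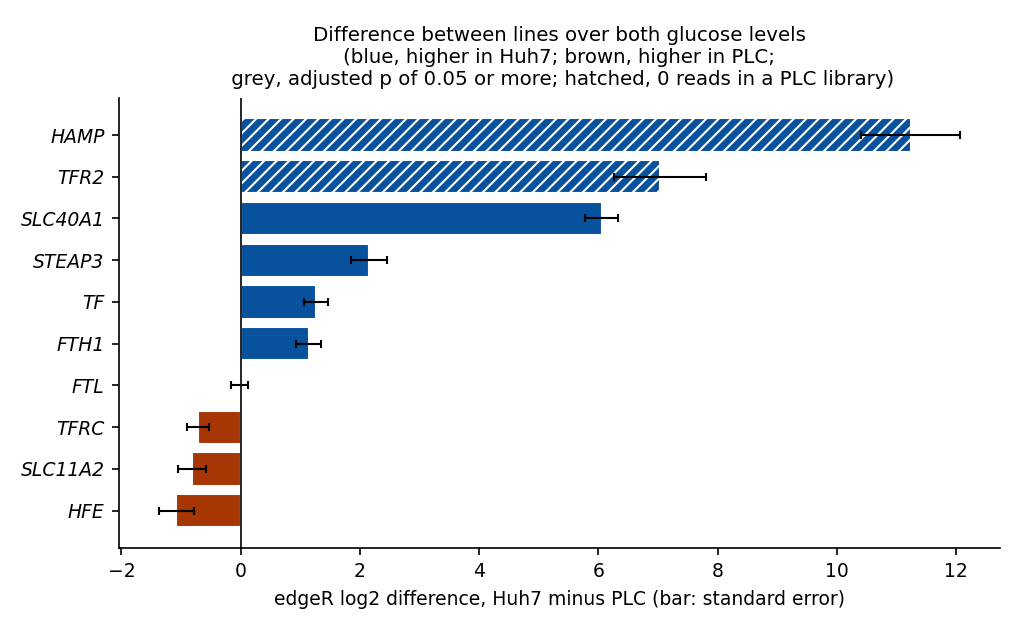
edgeR log2 difference between lines over both glucose levels (Huh7 minus PLC), with standard errors, for the 10 genes. SLC40A1, STEAP3, TF and FTH1 point to Huh7, TFRC, SLC11A2 and HFE to PLC, and FTL is at -0.02; the hatched bars of HAMP and TFR2 rest on 0 reads in a PLC library and their length depends on the prior count.

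Between glucose concentrations, both ferritin chains were lower at 25 mM in both lines. FPKM at 25 mM was divided by FPKM at 5 mM in the same line, with 0.1 added to both, and a gene was counted as past the thresholds at a ratio over 1.5 or under 0.67 with FPKM over 0.5 in at least 1 library. The intervals are exact (Clopper-Pearson) 95% intervals on the reads, without the added 0.1. They cover counting error only and compare 2 libraries. In Huh7 cells 1 of 10 genes was past the thresholds (TF, higher), beside 27.8% of all measured genes (14.1% higher, 13.7% lower) and 11.6% of protein-coding genes. In PLC cells 2 of 8 measured genes were past them (FTH1 lower, HFE higher), beside 43.3% of all measured genes (26.2% higher, 17.0% lower) and 30.3% of protein-coding genes. Neither count is above the share over all measured genes. The median ratio of the measured genes was 1.08 in Huh7 and 0.934 in PLC, where over all measured genes it was 1.03 and 1.08.

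FTH1 went from 510 to 364 FPKM in Huh7 cells, a ratio of 0.713 (0.6999 to 0.727), and from 288 to 132 FPKM in PLC cells, a ratio of 0.457 (0.442 to 0.473). FTL went from 7986 to 5557 FPKM in Huh7, a ratio of 0.696 (0.691 to 0.701), and from 7835 to 5769 FPKM in PLC, a ratio of 0.736 (0.730 to 0.742). Reads on the pseudogene copies added to FTH1 left its ratios at 0.715 and 0.462. In PLC cells FTH1 was lower by more than FTL. In Huh7 cells the ratios of the chains were close to each other.

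HFE stood higher at 25 mM in both lines, with ratios of 1.22 (1.05 to 1.44) in Huh7 and 1.965 (1.78 to 2.24) in PLC. TF was also higher in both, at 1.61 (1.58 to 1.65) in Huh7 and 1.20 (1.16 to 1.25) in PLC. HAMP had a ratio of 1.22 (1.04 to 1.43) in Huh7 cells and no ratio in PLC cells, where it had no reads. None of the 3 was called by edgeR in the fit over both lines.

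TFRC had intervals on opposite sides of 1, with a ratio of 1.11 (1.09 to 1.13) in Huh7 and 0.905 (0.891 to 0.919) in PLC, and this difference between lines was not tested. For SLC11A2 the ratios were 1.10 (1.02 to 1.18) and 0.949 (0.895 to 1.01). SLC40A1 had ratios of 1.06 (1.02 to 1.10) and 0.918 (0.642 to 1.27), the second from 110 and 53 reads. STEAP3 gave 0.940 (0.838 to 1.05) and 1.10 (0.850 to 1.45), and TFR2 0.889 (0.707 to 1.10) in Huh7 only. None of these 5 genes moved past the thresholds in a line.

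**Figure D3:**
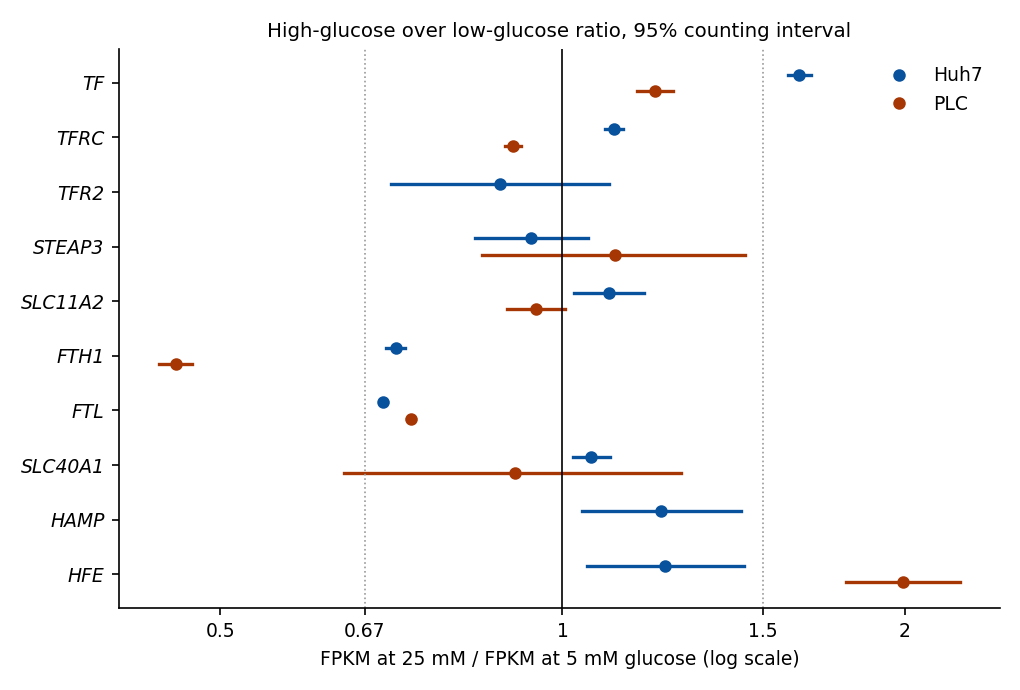
Ratio of FPKM at 25 mM to 5 mM glucose (log axis, without the added 0.1) for each gene, blue for Huh7 and brown for PLC, with 95% counting intervals; dotted lines mark 0.67 and 1.5. FTH1 and FTL lie left of 1 in both lines, TF and HFE lie right of 1, and TFRC lies on both sides; genes with 3 reads or fewer in a library have no point.

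A glucose effect common to the lines was fitted by edgeR on these counts, with cell line as a covariate. None of the 10 genes had an adjusted p under 0.05, where 0.379% of all genes tested did (0.0646% higher, 0.314% lower), and DESeq2 and limma voom called 0 as well. FTH1 and FTL had an unadjusted p under 0.05, which 8.51% of all genes tested had (4.36% lower at 25 mM). The log2 change of FTH1 was -0.89 (standard error 0.21, adjusted p = 0.117) and that of FTL was -0.56 (standard error 0.15, adjusted p = 0.150). Both were lower in 2 of 2 lines. With no filter on low counts the same edgeR test gave them adjusted p-values of 0.0037 and 0.0256, the lowest of the alternatives, which reached 0.99996 without the line term, and 526 genes were called in place of 88. The median log2 change over the 10 genes was -0.05, and over all genes tested it was -0.01. Where the libraries were scaled by TMM in place of their totals, every ratio moved by -0.04 on the log2 scale in Huh7 and by -0.12 in PLC. FTH1 then had ratios of 0.694 and 0.420, FTL 0.677 and 0.677, and TFRC 1.08 and 0.832. The interval of SLC11A2 in PLC then lay below 1 (0.873, 0.823 to 0.925) and that in Huh7 reached it (1.07, 0.996 to 1.15), as did that of SLC40A1 in Huh7 (1.03, 0.995 to 1.07).

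Around these genes, 76 further genes of iron and haem handling were listed by function, also with earlier results of these data known. Of the 70 tested, 37 differed between lines, 22 higher in Huh7 and 15 higher in PLC, where 42.9% of all genes tested differed. The 37 include HJV, SLC39A8, SCARA5 and LRP2, which passed the filter mainly or only through 1 line, so the count is a description. With at least 10 counts in every library, 32 were called, beside 6340 of all 16164 genes then tested. With glucose, edgeR called 1 of 70, HMOX1, beside 0.379% of all genes tested, while 10 had an unadjusted p under 0.05, beside 8.51%, and DESeq2 and limma voom called 2 each. In Huh7 cells 9 of 62 measured genes were past the ratio thresholds (5 higher, 4 lower), and in PLC cells 15 of 61 (8 higher, 7 lower). Neither share is above that of all measured genes, while the share in Huh7 is above that of protein-coding genes.

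Of the 5 genes that carry out or control the iron regulatory proteins, 3 were called between lines, beside 42.9% of all genes tested. IREB2 (IRP2) was higher in Huh7, with 26.2 and 27.2 FPKM against 15.5 and 20.9 FPKM in PLC (edgeR log2 difference 0.56, standard error 0.21, adjusted p = 0.0422), a call that was lost without the glucose term (adjusted p = 0.0712). SKP1, a subunit of the ubiquitin ligase of FBXL5, was higher in Huh7 by 0.67 on the log2 scale (adjusted p = 0.0282 from the edgeR test). FBXL5, the iron-sensing F-box protein that marks IRP2 for breakdown, was higher in PLC, with 17.9 and 20.8 FPKM against 13.3 and 10.4 FPKM (edgeR log2 difference in favour of PLC 0.72, adjusted p = 0.0262). None of the 5 passed the ratio thresholds with glucose in a line.

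Hepcidin control by BMP and SMAD held 11 of 18 genes called between lines, 9 higher in Huh7, where 42.9% of all genes tested were called and 21.8% were higher in Huh7. The count includes HJV, which passed the filter through Huh7 alone. HJV, the BMP co-receptor that is needed for hepcidin expression, had 33 and 45 reads in Huh7 and 0 in both PLC libraries, which makes it at least 15.6-fold and at least 8.002-fold higher in Huh7 at 5 and 25 mM. BMP2, a ligand of the pathway, had 3102 and 2468 reads in Huh7 against 178 and 46 in PLC, 24.7-fold and 28.6-fold more FPKM. NEO1, which binds HJV, went the other way, with 49 and 119 reads in Huh7 and 4004 and 1571 in PLC (edgeR log2 difference in favour of PLC 5.20, standard error 0.35). BMP2 was lower at 25 mM in both lines, with ratios of 0.566 and 0.517, though its edgeR adjusted p was 0.135.

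Of the other uptake routes of iron and haem, the genes with the largest differences between lines were SLC39A8, SCARA5 and LRP2, and the median log2 difference over the 12 genes tested was 0.03. SLC39A8 (ZIP8), a metal transporter, had 776 and 1046 reads in Huh7 and 11 and 14 in PLC. SCARA5, a ferritin receptor, had 0 and 4 reads in Huh7 and 188 and 20 in PLC, and LRP2, an endocytic receptor of many ligands, had 97 and 139 against 4 and 2. These 3 passed the filter mainly or only through the line in which they are high, so no p is given for them. Of the 12 genes of these routes tested, 5 were called higher in Huh7 and 2 higher in PLC, beside 21.8% and 21.1% of all genes tested, and 5 were not called. The calls include SLC39A8, SCARA5 and LRP2, so these counts are a description. Of the genes that handle ferritin, NCOA4, the receptor that takes ferritin to the lysosome, was higher in Huh7, at 81.1 and 89.4 FPKM against 35.9 and 28.0 FPKM (edgeR log2 difference 1.42, adjusted p = 0.000197). PCBP2, an iron chaperone, was also higher in Huh7 by 1.19 on the log2 scale (edgeR adjusted p = 0.000684).

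Ceruloplasmin (CP), the ferroxidase that works with ferroportin, was higher in PLC (edgeR log2 difference in favour of PLC 1.79, adjusted p = 0.00068) and had FPKM ratios over 1.5 in both lines. Without the glucose term the difference between lines was not called (adjusted p = 0.0583). CP had 145 and 417 reads in Huh7 and 444 and 1196 in PLC, with ratios of 1.94 (1.69 to 2.49) and 4.89 (4.55 to 5.68). The shared edgeR log2 change was 1.63 (standard error 0.33, adjusted p = 0.0584), and DESeq2 and limma voom gave adjusted p-values of 0.0163 and 0.0381, within a range of 6.23e-05 to 0.99996 over all alternatives. HEPHL1, a related oxidase, had 69 and 96 reads in Huh7 against 16 and 6 in PLC. ABCG2, a transporter of porphyrins and haem, was higher in PLC (26.1 and 14.4 FPKM against 11.3 and 7.98 FPKM), and this call too was lost without the glucose term (edgeR adjusted p = 0.0541).

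Of 13 genes of haem synthesis and breakdown, 9 were called between lines, 6 higher in PLC, beside 42.9% and 21.1% of all genes tested. HMOX1, the inducible haem oxygenase that frees iron from haem, had 498 and 285 reads in Huh7 and 14729 and 1898 in PLC. PLC was 20.9-fold and 12.5-fold above Huh7 at 5 and 25 mM, and the gene was lower at 25 mM in both lines with ratios of 0.412 (0.3503 to 0.471) and 0.243 (0.232 to 0.255). It was the 1 iron gene called by edgeR for glucose, with a log2 change of -1.76 (standard error 0.25, adjusted p = 0.0093), although the call was lost with library totals alone (adjusted p = 0.0504) and without the line term, and the adjusted p over all alternatives ran from 2.82e-09 to 0.99996. HMOX2, the constitutive form, and BLVRB, a biliverdin reductase, were higher in PLC by 2.32 and 2.13 on the log2 scale. CPOX, an enzyme of haem synthesis, was higher at 25 mM in both lines, with ratios of 1.51 (1.39 to 1.65) and 1.61 (1.45 to 1.81). With TMM scaling the ratios were 1.47 and 1.49, under the threshold in both lines, and the shared edgeR change was not called (adjusted p = 0.531). Of 14 genes of mitochondrial iron and iron-sulphur clusters, 1 differed between lines, CISD2, higher in PLC by 0.82 on the log2 scale.

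**Figure D4:**
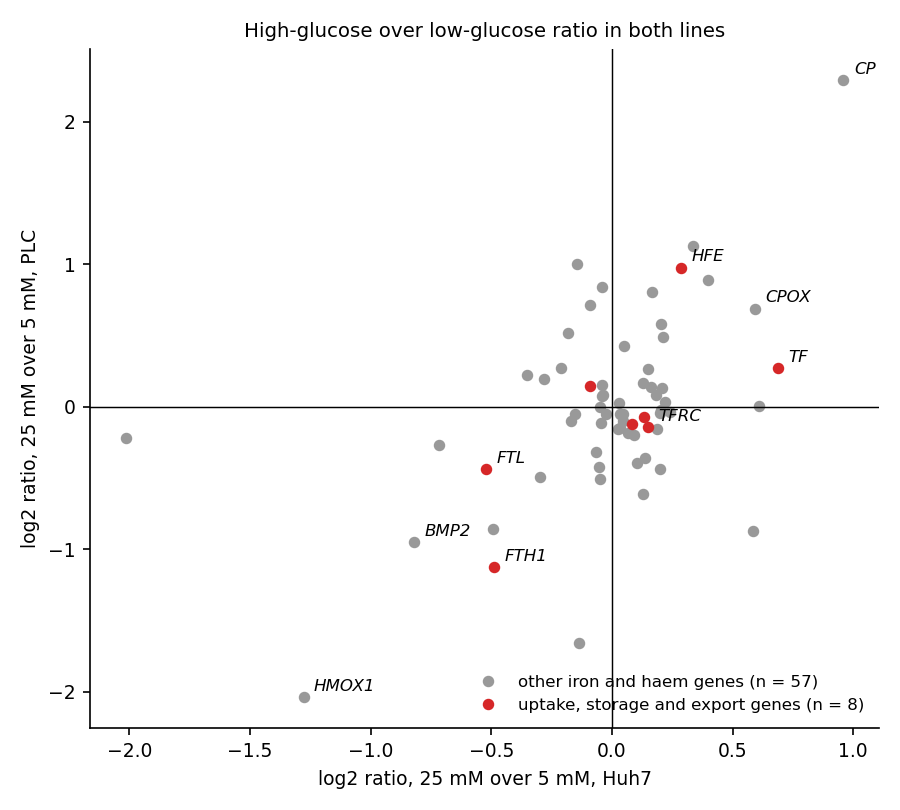
log2 ratio of FPKM at 25 mM to 5 mM glucose (with 0.1 added to both values) in Huh7 (horizontal) and PLC (vertical) for the 8 iron genes (red) and 57 other iron and haem genes (grey) measured in both lines. HMOX1, BMP2, FTH1 and FTL lie in the lower left, CP, CPOX, TF and HFE in the upper right, and TFRC at lower right.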

How the data were processed

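RNA of Huh7 and PLC cells was sequenced by the authors after rRNA removal and directional library construction, with 1 library for each line and glucose concentration. The deposited values are counts, whole numbers of reads per gene without normalization. The submitters' processing notes name HISAT2, featureCounts and hg38, with no versions. The annotation release and the strand setting are not given in the sources used here. Of 59657 lines, 5 (a broken ANK2 entry) were left out. Total counts were 21376239, 30085303, 30279716 and 16049686 in Huh7 cells at 5 and 25 mM and PLC cells at 5 and 25 mM glucose, and 0 columns of other samples were present.

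FPKM was calculated from the counts, the gene lengths of the table and the totals. As in the study's screen of lncRNAs, a gene had to exceed 0.5 FPKM and a ratio had to exceed 1.5 or lie under 0.67. The study took its FPKM from StringTie, so the same thresholds rest there on other values. That FPKM has to pass in at least 1 of 2 libraries, and that 0.1 is added to both values, was chosen here. Intervals are exact (Clopper-Pearson) at 95% and cover counting error only. Counts were tested with edgeR 4.0.16 in R 4.3.3 (filterByExpr, TMM, quasi-likelihood, Benjamini-Hochberg over all genes tested, threshold 0.05) in 2 fits over all 4 libraries, glucose with line as covariate and line with glucose as covariate. The edgeR test itself gives no standard error. Those printed with edgeR values were derived here as the absolute log2 value divided by the square root of the test's F statistic. They do not measure the spread between cultures. DESeq2 1.42.0 and limma 3.58.1 (voom) were alternatives, with other scalings, filters, pseudocounts and ratio thresholds. On simulated counts for 23217 genes, with 200 changed, the glucose fit recovered 12%, 66% and 90% of 2-fold, 4-fold and 8-fold changes, and the line fit 13%, 70% and 94%. False calls were 1, 4 and 8 in the glucose fit and 2, 8 and 13 in the line fit. The simulation gave each gene 1 mean over all 4 libraries, so it held no line difference beyond the changes added. Its rates need not hold for these data.

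Whether the counting used strand was checked on processed pseudogenes that lie in introns. Their median level was 1.27 FPKM on the strand of the host gene (215 genes) and 1.30 FPKM on the opposite strand (433 genes), against 0 outside protein-coding genes (3514 genes), so reads on intronic genes were as many on the opposite strand as on the host strand, as counting without strand would give. Genes were matched by symbol to GENCODE 44, which gave 38133 of 59652 genes a class and 19159 as protein-coding.

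The 10 genes and the lists were chosen with earlier results of these data known. Named are all 10 genes, and in each role of the wider list up to 3 genes with the largest called difference between lines. Up to 3 past the ratio thresholds with 1 direction in Huh7 and PLC are also named in each role. The ferritin pseudogenes with the most reads are named, as are genes that overlap one of the 10, except those that overlap TFRC and SLC11A2.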

Additional observations from a re-analysis of the deposited data

Results flagged for a closer look

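The direction of the FPKM ratio of 25 mM to 5 mM glucose was compared between lines only for the iron genes described above. For 5 of them the counting intervals lay on opposite sides of 1 in the 2 lines. The intervals cover counting error only and are narrow for genes with many reads. The share of all measured genes that meet this rule was not counted, so the 5 are not shown to be unusual. The ratio in Huh7 and then in PLC cells was 1.11 and 0.905 for TFRC, 0.784 and 1.16 for FBXL5, 1.10 and 0.779 for NCOA4, 1.54 and 0.742 for NEO1, and 1.14 and 0.895 for SKP1. With TMM scaling each kept its sides, and the interval that came nearest to 1 was that of FBXL5 in PLC (ratio 1.07, 1.01 to 1.14). With 1 library per condition these differences between lines were not tested.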

How the results depend on the processing

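The labels carry no replicate numbers, and the glucose fit pairs the libraries by cell line through its line term. Leaving out a library would leave the fits without residual degrees of freedom, so it was not run. Under ratio thresholds of 2 and 0.5, 0 of the 10 genes were past them in Huh7 and 1 in PLC (FTH1), and under the other 6 alternatives the counts stayed at 1 and 2. The share of all measured genes past 2 or 0.5 was not counted. For glucose, edgeR called 2 of the 10 genes (FTH1 and FTL) with no filter on counts and 0 under the other 6 alternatives. Of the wider iron genes it called 0 with library totals alone, 0 with no line term and 4 with no filter, and DESeq2 and limma voom called 2 each, against 1. Over all genes the glucose calls were 88, and under the alternatives 80, 19, 526, 27, 0, 197 and 92. The genes tested were 23217, but 38660 with no filter and with DESeq2, and 16164 with at least 10 counts in every library. For the lines 9 of 10 genes were called, 8 without the glucose term (FTH1 was lost) and 7 of 8 tested with at least 10 counts in every library, where TFR2 and HAMP drop out. Of the wider iron genes 37 were called between lines, 31 without the glucose term (IREB2, CP, ABCG2 and CPOX among those lost) and 32 with at least 10 counts in every library. Over all genes the line calls were 9969 of 23217 tested. They were 8812 of 23217 without the glucose term and 6340 of 16164 with at least 10 counts in every library. No result past its threshold changed direction under an alternative, while the small glucose changes of TFRC, STEAP3, SLC11A2, SLC40A1 and TFR2, none of them called, took either sign. The causes were not tested. The length of the MANE Select transcript, chosen after seeing the data, raised the FPKM of 9 of the 10 genes and left FTL as it was. With 1 library per condition, nothing here measures the spread between cultures, and the depth limits what can be said of TFR2, HAMP and HJV in PLC cells.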
